A study of Mus musculus with 8 samples.

Results

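The genes described here are 38 mouse imprinted genes that lie outside the Peg13-Kcnk9, Dlk1-Dio3 and Prader-Willi domains. They were found by gene symbol among the 55416 rows of the count table, and each of the 38 symbols had a row. Total RNA came from cerebral cortex, and poly-A messenger RNA was sequenced from 4 libraries labelled AGO2_L192P/+, heterozygous for a leucine to proline change in Argonaute 2 (called L192P here), and 4 wild-type libraries (WT). The allele was placed by genome editing in zygotes of C57BL/6JUke mice, and carriers were bred with wild-type mice. All cells of an animal carry the allele, no other agent was given, and the labels give neither age nor sex. The labels do not say that the 4 replicates of a group are separate animals, so p-values measure the spread between these libraries. By sex-linked genes, replicate 1 of each group was male and the rest were female (values below), so replicate 1 came from another animal. For the other libraries part or all of the spread may be technical. Total counts ran from 20396357 to 43575900 per library, and WT replicate 2 was the deepest.

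Imprinted genes are transcribed mainly from the copy inherited from the mother or from the father. DNA methylation laid down in the egg or sperm marks which parent a copy came from. Many of them regulate growth, and several are abundant in brain, where Peg3 and Grb10 are known for effects on maternal care and social behaviour. They sit in clusters that share a control region, so neighbours are often described together. The counts do not separate the copies, so every value below is the sum of both alleles. In whole cortex, fewer cells of a type and less RNA per cell cannot be told apart.

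The promoter shared by Peg3 and Usp29 is shown first, because these neighbours both rose in L192P. The genes point away from each other on chromosome 7, and in the GRCm39 annotation their starts are 109 bases apart (Peg3 at 6706882 to 6733468, minus strand, and Usp29 at 6733577 to 6970218, plus strand). The window below is from RefSeq, GRCm38.p6, chr7:6730370-6730669, minus strand, 5′ to 3′ for Peg3. In it the RefSeq starts are 164 bases apart, and capitals mark the 165 bases from the Usp29 start to the Peg3 start.
Peg3 and Usp29: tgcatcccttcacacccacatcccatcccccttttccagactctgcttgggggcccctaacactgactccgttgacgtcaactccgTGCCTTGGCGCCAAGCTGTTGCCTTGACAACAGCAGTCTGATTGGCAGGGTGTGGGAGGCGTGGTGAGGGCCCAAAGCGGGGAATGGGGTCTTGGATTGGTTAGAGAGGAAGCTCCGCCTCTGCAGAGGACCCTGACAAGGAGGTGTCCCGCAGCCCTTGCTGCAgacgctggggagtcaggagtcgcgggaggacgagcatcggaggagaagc

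Grb10, which also rose, has a pair of RefSeq starts that differ in CpG content, the dinucleotide that carries imprinting methylation. Both windows run from 250 bases before to 50 bases after the start on the minus strand of GRCm38.p6, at chr11:12037371-12037670 and chr11:12027922-12028221, and capitals mark every CpG. The first holds 45 CpG and the second 9, beside a median of 7 over 32851 RefSeq windows of the same 300 bases. The counts are per gene and do not say which start was used.
Grb10 window 1: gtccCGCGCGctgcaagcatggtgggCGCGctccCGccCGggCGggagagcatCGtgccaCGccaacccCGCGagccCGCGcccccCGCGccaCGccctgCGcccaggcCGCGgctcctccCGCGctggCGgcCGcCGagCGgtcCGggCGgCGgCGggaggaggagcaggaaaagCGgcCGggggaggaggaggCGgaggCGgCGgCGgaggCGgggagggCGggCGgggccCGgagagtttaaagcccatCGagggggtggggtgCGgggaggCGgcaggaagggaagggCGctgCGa
Grb10 window 2: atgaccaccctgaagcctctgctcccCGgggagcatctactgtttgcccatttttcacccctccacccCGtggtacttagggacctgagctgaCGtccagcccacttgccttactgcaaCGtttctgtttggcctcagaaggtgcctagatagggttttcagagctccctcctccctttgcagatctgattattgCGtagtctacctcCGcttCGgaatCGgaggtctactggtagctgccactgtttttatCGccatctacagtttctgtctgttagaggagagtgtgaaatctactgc

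Of the 38 members, 32 had 46 such windows outside chromosome 18, where Impact lies and where no window of a member was counted. The letters TGCCGC, bound by the imprint factor ZFP57 when methylated, were on either strand of 14 of these 46 windows and of 11.6% of all windows. TGCCGC itself holds a CpG, and the windows were not matched for CpG content, so these shares are not a like comparison. Windows 2 and 3 of Mest overlap, so their sites count more than once. GCCATNTT, the letters of the YY1 motif, was in 0 of the 46 and in 6.05% of all windows. Among the genes that rose, Peg10 had no window. TGCCGC was in 1 window of Grb10 and 1 of Calcr, and in no window of Peg3, Usp29 or Asb4. These are descriptions of letters and not of binding.

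In L192P, 6 of the imprinted genes rose and none fell. Of the 35 members given an adjusted p, Grb10, Peg3, Peg10, Asb4, Calcr and Usp29 were called higher at an adjusted p under 0.05 in DESeq2, which is 17.1% of those tested. Over all 18627 genes tested, 0.789% were called higher and 0.569% lower. The members were chosen with earlier results of these data known, so the 2 shares are descriptions and not a test. Of the called genes, 2 lie in the Peg3 domain and 3 in the Peg10-Sgce domain, so they are not independent loci. The log2 fold change was above 0 for 29 of the 35 members (82.9%) and for 50.6% of all genes tested. Its median was 0.15 over the members and 0.0019 over all genes tested. There were 12 members with an unadjusted p under 0.05, 11 of them higher, beside 9.44% of all genes in either direction.

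The groups did not overlap for 7 of the 35: the 6 called members lay above WT in every library, beside 3.01% of all genes tested, and Mcts2 lay below, beside 2.96%. By edgeR 2 members were called (Grb10 and Peg3) of 53 genes in all, and by limma-voom 3 (also Calcr) of 45, against 253 by DESeq2. By the parental copy commonly given as active, 3 of 17 paternally and 2 of 12 maternally expressed members tested were called. The other called gene, Grb10, uses either copy depending on tissue, the paternal one in neurons, and was counted in neither class. Medians of the log2 fold change were 0.13 (paternal) and 0.08 (maternal). No test of a difference between these classes was made. The classes are those commonly given and are not specific to cortex, and the counts do not show which copy was active here.

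**Figure D1:**
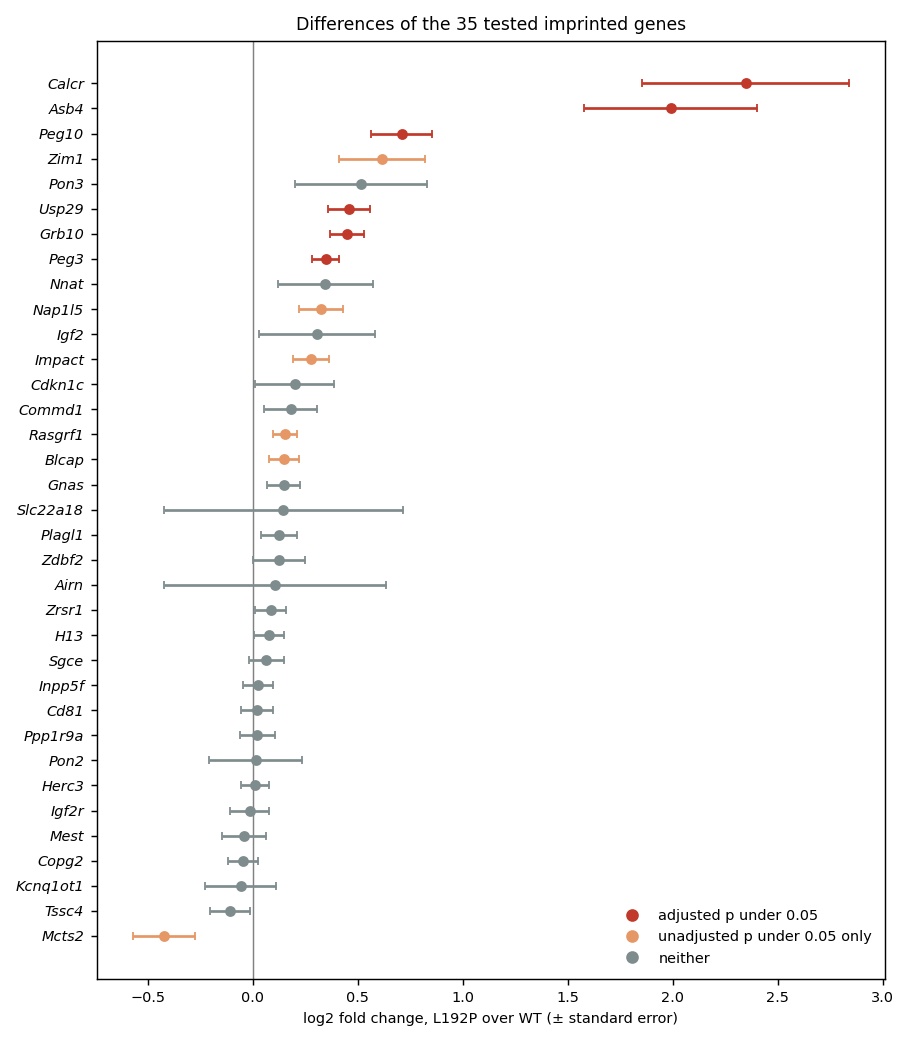
Log2 fold change of L192P over WT (x axis, bars are the standard error) for the 35 imprinted genes given an adjusted p, ordered by size. The 6 called genes (dark red) all lie to the right of 0, Calcr and Asb4 farthest, and Mcts2 lies lowest.

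In the Peg3 domain, Peg3 and Usp29 both rose. Peg3 encodes a zinc finger protein expressed from the paternal copy. Its normalized counts were 7693, 6851, 7460 and 7617 in L192P replicates 1 to 4 and 6136, 5333, 5922 and 5906 in WT. Every L192P library was above every WT library, and the fold was 1.27 (log2 0.35 ± 0.06 SE, DESeq2 adjusted p = 3.64e-05). The same-numbered libraries differed by 0.33, 0.36, 0.33 and 0.37 on the log2 scale.

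Usp29, a ubiquitin-specific protease gene on the same paternal copy, had normalized counts of 1238, 1121, 1115 and 1228 in L192P and 1024, 755.8, 859 and 786 in WT. WT replicate 1 was the highest of its group and still below all L192P libraries. This was a log2 fold change of 0.46 ± 0.10 (DESeq2 adjusted p = 0.00112). Zim1, the maternally expressed zinc finger gene next to Peg3, had 159, 116, 131 and 140 in L192P and 127, 79.7, 68.4 and 82.0 in WT, and WT replicate 1 fell within the L192P range. Its log2 fold change was 0.62 ± 0.20 with an adjusted p of 0.115, and it was called (adjusted p = 0.0024) without WT replicate 1. Zfp264, a pseudogene at the far end of the domain, had 0 or 1 count in every library. Per kilobase of exon, Peg3 had 542 normalized counts in L192P against 65.0 for Usp29 and 16.7 for Zim1.

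In the Peg10-Sgce domain on chromosome 6 (positions here and below are of GRCm39), Peg10, Asb4 and Calcr rose, while the other 4 members and the other 6 tested genes of the 1747.3 kb span were not called. Peg10 (chr6:4747306-4760517, plus strand) is derived from a retrotransposon and is needed for placenta formation. Its normalized counts were 1355, 1850, 1276 and 1933 in L192P and 1182, 761.5, 1034 and 947 in WT. L192P replicates 2 and 4 stood well above 1 and 3, and the lowest L192P library was only slightly above the highest WT library. On the log2 scale the difference was 0.71 ± 0.15 (DESeq2 adjusted p = 0.00045). With the replicate number as a block the log2 value was 0.70, and Peg10 was not called by DESeq2 (adjusted p = 0.116) but was by edgeR (adjusted p = 0.0184). Without WT replicate 3 it was not called (adjusted p = 0.134).

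Sgce, epsilon-sarcoglycan (chr6:4672057-4747207, minus strand), starts 99 bases from Peg10 on the opposite strand, and the paternal copy of each is active. Its normalized counts were 603, 564, 603 and 648 in L192P and 545.5, 608, 579 and 576 in WT, so the groups overlapped. Sgce differed by a log2 fold change of 0.06 ± 0.08 (adjusted p = 0.925), and the 95% interval of the fold was 0.934 to 1.17. The log2 ratio of Peg10 to Sgce was 1.17, 1.71, 1.08 and 1.58 in L192P and 1.11, 0.32, 0.84 and 0.72 in WT. It was higher by 0.64 in L192P, and an exact two-sided permutation test gave p = 0.0571 (0.229 adjusted over the 8 pairs), so a difference in response between these neighbours was not established. Between same-numbered libraries the ratio differed by 0.05, 1.39, 0.24 and 0.86, higher in L192P in 4 of 4, where an exact sign-flip test over 4 pairs cannot go below p = 0.125.

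Asb4, a maternally expressed ankyrin repeat and SOCS box gene (chr6:5383386-5433026, plus strand), was low in cortex. Its normalized counts were 41.1, 67.1, 43.8 and 68.3 in L192P and 26.4, 9.04, 16.3 and 3.51 in WT. The groups did not overlap, and the fold was 3.98 with a 95% interval of 2.27 to 6.97 (DESeq2 adjusted p = 0.000514). Calcr, the calcitonin receptor (chr6:3685680-3764714, minus strand), had 29.9, 31.9, 28.8 and 39.5 in L192P and 15.5, 3.39, 4.35 and 2.34 in WT. WT replicate 1 was far above the other WT libraries and below every L192P library. The fold was 5.09, or 2.35 on the log2 scale, with an interval of 2.60 to 9.96 (adjusted p = 0.000675). Without WT replicate 1 the log2 value was 3.26, and no adjusted p was given. Raw counts of Calcr did not exceed 33 in any library.

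Under the replicate block neither gene was given an adjusted p, because the filter on low means removed them. With that filter off, the blocked adjusted p was 0.00222 for Asb4 and 0.0023 for Calcr. Of the uncalled members of the domain, the paraoxonase gene Pon3 had a mean of 43.0 ± 14.2 (SD, n = 4) in L192P and 29.9 ± 6.13 in WT. Its relative Pon2 had 860 ± 182 and 851 ± 170, and Ppp1r9a, which encodes the spine protein neurabin, had 9500 ± 736 and 9363 ± 949.

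Grb10 (chr11:11880498-11988683 of GRCm39, minus strand) encodes an adaptor that restrains insulin and IGF receptor signalling, and in neurons its paternal copy is the active one. Its normalized counts were 1381, 1268, 1282 and 1397 in L192P and 1095, 900.4, 985 and 920.1 in WT. The groups were separate, and the log2 fold change of 0.45 ± 0.08 had the lowest adjusted p of the members (DESeq2, 1.97e-05). Grb10 and Peg3 were called in each of the 19 alternative fits, and no other member was.

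**Figure D2:**
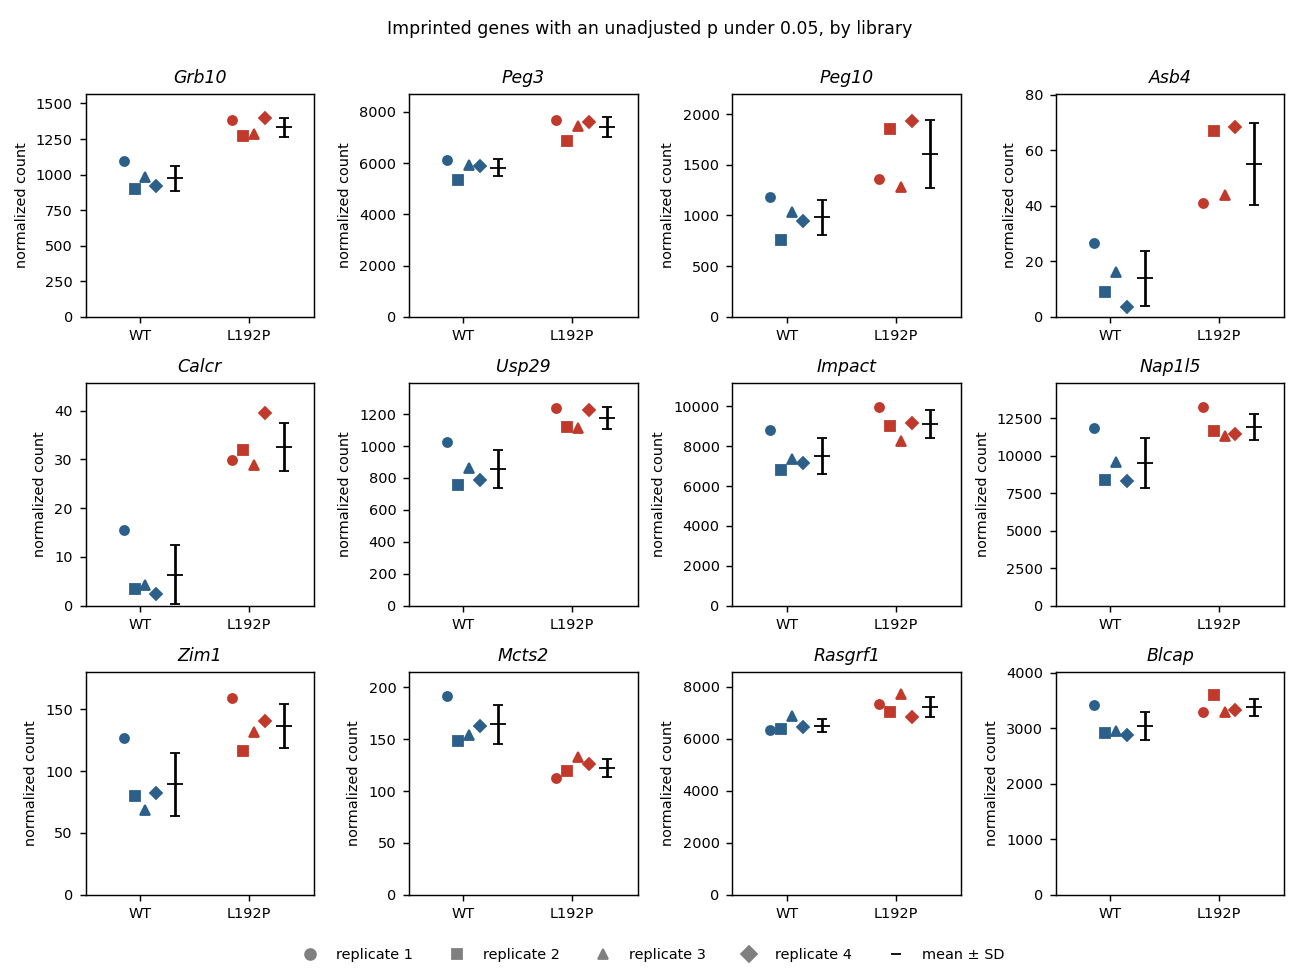
Normalized count (y axis, from 0, a scale of its own in each panel) of the 12 imprinted genes with an unadjusted p under 0.05, in 4 WT (blue) and 4 L192P (red) libraries. Marker shape gives the replicate number and bars give mean ± SD. The groups are separate in the first 6 panels and in Mcts2, and WT replicate 1 is the highest WT library in all panels but Rasgrf1.

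Impact, Nap1l5 and Rasgrf1 had smaller differences that were called by DESeq2 when libraries of the same number were paired. Impact, a regulator of the kinase GCN2, had 9977, 9023, 8258 and 9166 in L192P and 8801, 6784, 7329 and 7139 in WT. Only WT replicate 1 reached into the L192P range. Impact had a log2 fold change of 0.28 ± 0.09, with an adjusted p of 0.0831 unpaired and 1.24e-05 with the replicate block. Nap1l5, a nucleosome assembly protein relative whose gene lies inside Herc3 on the opposite strand (chr6:58882218-58884061, minus strand), had 13244, 11648, 11347 and 11448 in L192P and 11841, 8363, 9570 and 8314 in WT, and again WT replicate 1 was the library that overlapped. Its log2 fold change was 0.32 ± 0.10, with an adjusted p of 0.0974 unpaired and 5.43e-07 with the block. Leaving out WT replicate 1 also brought a call for Impact (5.5e-05), Nap1l5 (9.3e-07) and Blcap (0.0314), and leaving out L192P replicate 3 one for Impact (DESeq2 adjusted p = 0.0447).

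Rasgrf1, a Ras guanine nucleotide exchange factor expressed from the paternal copy in brain, had 7336, 7026, 7704 and 6811 in L192P and 6311, 6366, 6862 and 6438 in WT. L192P replicate 4 was just under WT replicate 3. The log2 difference of 0.15 ± 0.06 had an adjusted p of 0.234 unpaired and 0.0234 with the block. Unlike Impact and Nap1l5, Rasgrf1 was not called with the block once independent filtering was off (0.0586), or by edgeR with the block (adjusted p = 0.0631). With the block, 6 of 29 members tested were called, all higher (Grb10, Peg3, Usp29, Impact, Nap1l5 and Rasgrf1), beside 1.82% of all genes. Of these, 3 were also called without it. By edgeR with the block 9 were called: the 6 of the unpaired DESeq2 fit, Impact, Nap1l5 and Zim1. With both replicate 1 libraries left out, 10 of 32 members tested were called, all higher, beside 1.65% of all genes. Zim1, Impact, Nap1l5, Nnat and Blcap joined the called genes there, and Calcr had no adjusted p.

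Mcts2 was the only member with an unadjusted p under 0.05 and lower values in L192P. It is an intronless gene inside H13 on the same strand (chr2:152528955-152529866, plus strand), and encodes a translation re-initiation factor. Its normalized counts were 112, 120, 133 and 126 in L192P and 191, 149, 154 and 163 in WT, so the groups did not overlap. Its log2 fold change of -0.42 ± 0.15, with an adjusted p of 0.164, was not past the threshold. H13, signal peptide peptidase, had 1299 ± 62.7 in L192P and 1227 ± 73.2 in WT. The log2 ratio of Mcts2 to H13 was lower in L192P (-3.40 against -2.90), with no overlap (exact two-sided permutation p = 0.0286, the smallest that 4 against 4 can give, and 0.229 adjusted over the 8 pairs).

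The 8 pairs of neighbouring members were picked after their values were seen. Peg3 over Usp29 differed by -0.12 on the log2 scale (exact permutation p = 0.2), and Nap1l5 over its host Herc3 by 0.33 (p = 0.114), with 4 of 4 same-numbered differences above 0. Herc3, an E3 ligase gene, had 4543 ± 344 in L192P and 4505 ± 175 in WT. Blcap, the host of Nnat, had 3288, 3606, 3284 and 3322 in L192P and 3414, 2917, 2959 and 2883 in WT, with a log2 fold change of 0.15 ± 0.07 and an adjusted p of 0.456. Nnat, neuronatin, had 4150 ± 577 and 3263 ± 911, and its exons overlap those of Blcap on the opposite strand. The kit keeps strand, but whether the counting used it is not given in the sources used here. If it did not, the counts of such overlapping pairs may be affected. After adjustment the pair ratios ranged in p from 0.229 to 1.

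**Figure D3:**
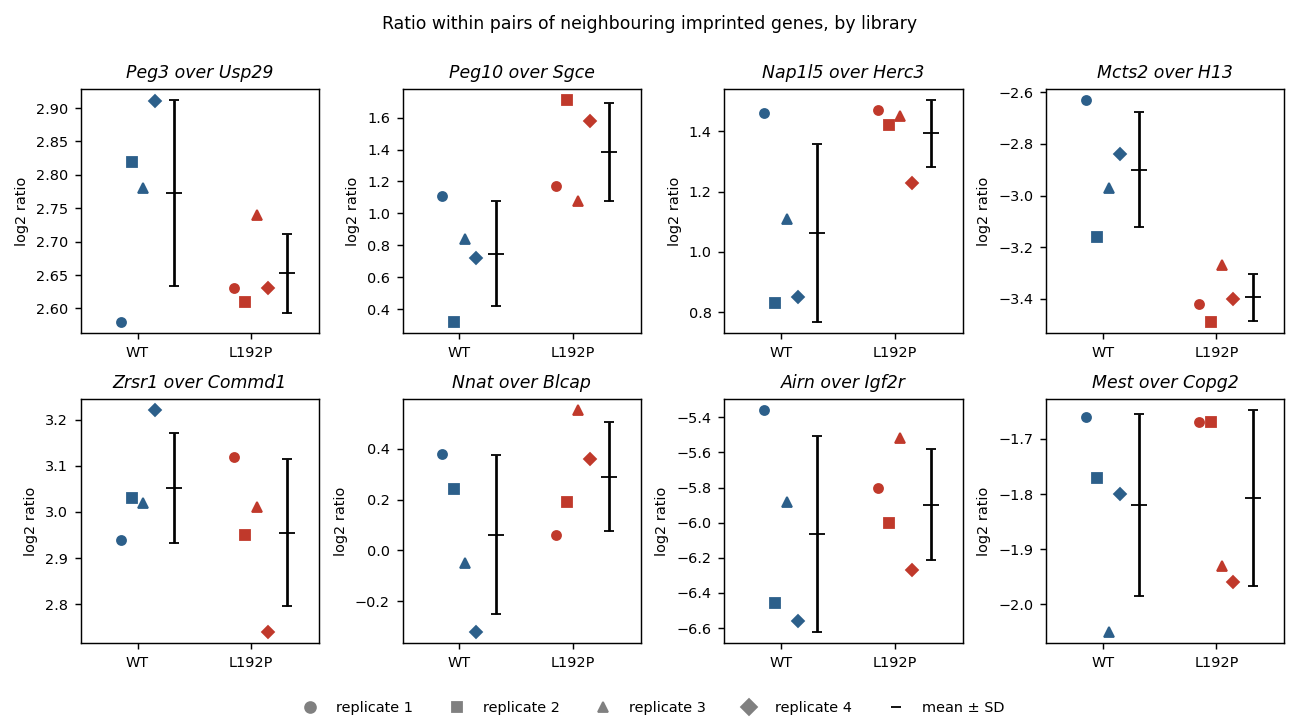
Log2 ratio of normalized counts (plus 1) within 8 pairs of neighbouring imprinted genes, by library, with a y scale of its own in each panel. Symbols are as in the plot of counts by library, and bars give mean ± SD. The groups are separate for Mcts2 over H13, and WT replicate 1 lies within the L192P range for Peg10 over Sgce.

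The classic growth genes of chromosome 7 were low, or overlapped between groups, and none was called. Igf2, a fetal growth factor, had 56.1, 105, 98.0 and 40.7 in L192P and 61.9, 58.8, 65.2 and 56.2 in WT. H19, the long noncoding RNA next to it, had 2 to 12 raw counts and no adjusted p, and Phlda2, a growth suppressor of the placenta, had 0 or 1. Cdkn1c, a cell cycle inhibitor, had 159.6 ± 33.9 in L192P and 138 ± 27.2 in WT. In the Kcnq1 domain, which holds Cdkn1c, 0 of 5 members tested were called. The noncoding RNA Kcnq1ot1 had 206 ± 39.9 and 214 ± 37.5, and the transporter gene Slc22a18 had 4 to 25 raw counts. The tetraspanin gene Cd81 had 6324 ± 577 and 6225 ± 368, and Tssc4 had 696 ± 51.1 and 748 ± 79.9.

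Igf2r, the receptor that clears IGF2, had 670.2 ± 73.7 in L192P and 675 ± 21.7 in WT, and Airn, the noncoding RNA that silences it, 10.5 ± 3.05 and 9.74 ± 4.40. Mest had 619 ± 59.3 and 637 ± 74.2, and its neighbour Copg2, a coat protein gene, 2168 ± 168 and 2240 ± 87.7. Plagl1, a zinc finger gene that regulates other imprinted genes, had 735.5 ± 39.6 and 672 ± 52.9. Gnas, the stimulatory G protein subunit, had 2191 ± 133 and 1977 ± 177. Inpp5f had 3562 ± 141 and 3502 ± 278, Zdbf2 769 ± 70.2 and 706 ± 129.5, Zrsr1 2126 ± 118 and 2007 ± 137, and Commd1 274 ± 19.2 and 242 ± 31.3. Over the 23 members tested with an unadjusted p of 0.05 or more, log2 fold changes ran from -0.11 to 0.52 with standard errors of 0.07 to 0.57, and the lowest adjusted p was 0.568.

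The imprint maintenance list holds 15 genes that read or keep the methylation, such as Zfp57 and Dnmt1. None of the 13 tested was called in DESeq2 or in any of the 19 alternative fits, 1 had an unadjusted p under 0.05 (Smchd1) and the median log2 fold change was 0.07. Of 13 tested genes of the IGF axis, Igf1 was called higher (log2 0.59 ± 0.15, adjusted p = 0.016), and the median was -0.01. Igf1, the growth factor, had 252, 269.7, 288 and 234 in L192P and 223, 141, 151 and 179 in WT. It was not called by edgeR, by limma-voom, or when any of L192P replicates 2 and 3 and WT replicates 2, 3 and 4 was dropped.

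Markers of other brain tissue differed between the same libraries. Hypothalamus markers summed to 347 to 1399 normalized counts in L192P and 204 to 327 in WT. The highest sum, in L192P replicate 3, held 459 for Avp, 262 for Pmch and 178 for Hcrt. By DESeq2, 3 of 9 tested were called higher (Otp, Oxt and Avp) and none lower, and 5 had an unadjusted p under 0.05. The log2 fold change was above 0 for 8 of the 9, with a median of 1.16. Otp, a transcription factor of neuroendocrine neurons, had 64.5, 12.5, 41.5 and 43.1 in L192P and 11.8, 1.13, 1.09 and 1.17 in WT. Hmx3 was at 0 in every WT library and at 3.46 to 9.10 in L192P, and no other marker of the list was at 0 throughout a group. Oxt, oxytocin, had 144.8, 19.3, 143 and 154.5 and 2.73, 5.08, 7.60 and 4.68. Calcr and Asb4 are both known to be transcribed in hypothalamus. The libraries are all of cortex, so transcription in hypothalamus was not checked for any of the 6 called genes. Of the 16 markers, L192P replicate 2 was the lowest or tied lowest L192P library for 9, Otp, Oxt and Avp among them. It was the highest for 2 (Hmx3 and Rax) and second highest for 2 (Nkx2-1 and Nr5a1). For Calcr, Asb4 and Peg10 it ranked second highest in its group. For Peg3 (6851) and Grb10 (1268) L192P replicate 2 was the lowest of its group, and for Usp29 it was just above the lowest (1121 against 1115). WT replicate 1 was the highest WT library for each of the 6 called genes. Of the markers, WT replicate 1 was also the highest for Agrp, Hcrt, Pmch, Avp, Trh, Sim1, Otp, Nr5a1 and Hmx2. It was not the highest for Pomc, Ghrh, Fezf1, Nkx2-1 or Rax, and it was the lowest for Oxt. The part of these markers in the results was not tested.

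Meningeal fibroblast markers summed to 1352 to 2350 in L192P and 1083 to 1433 in WT, and 3 of 8 were called higher (Aldh1a2, Slc6a13 and Foxc1). By DESeq2, 6 of the 8 had an unadjusted p under 0.05. All 8 log2 fold changes were above 0, with a median of 0.63. Cortical neuron markers summed to 37098 to 41897 in L192P and 42462 to 44498 in WT, so the sums did not overlap, and 0 of 7 were called by DESeq2 (3 at an unadjusted p under 0.05), with all 7 log2 fold changes below 0. With the block, 3 of these 7 were called. The tissue label was met by abundant Slc17a7, the vesicular glutamate transporter of cortical neurons, at 28887 or more in every library. Choroid plexus markers overlapped between groups (16801 to 38721 in L192P and 14623 to 33072 in WT, 0 of 8 called), and so did vascular markers (1802 to 4097 and 2063 to 3614, 0 of 11 called), and neither list had a gene at an unadjusted p under 0.05 in DESeq2. The part of these shifts was likewise not tested.

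**Figure D4:**
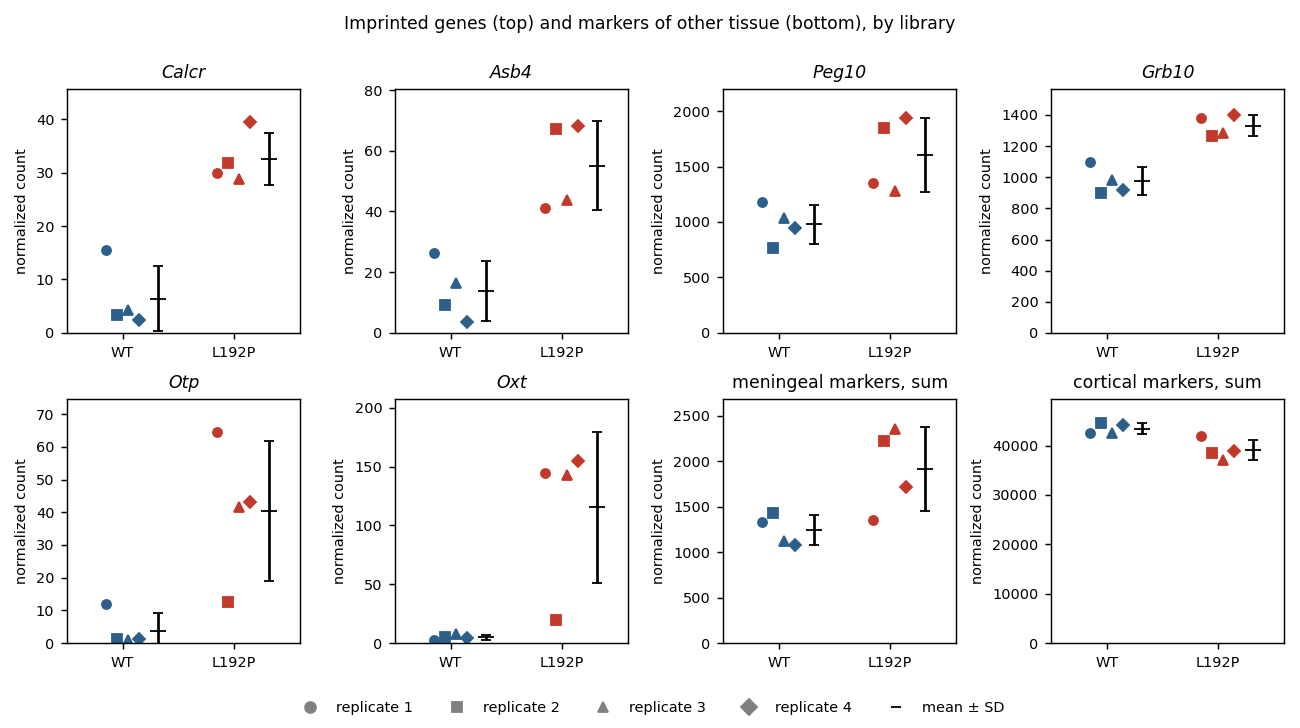
Normalized count (y axis, from 0) of 4 called imprinted genes in the top row, and of the hypothalamus markers Otp and Oxt and the summed meningeal and cortical markers in the bottom row, in 4 WT (blue) and 4 L192P (red) libraries. Bars give mean ± SD. Every L192P library lies above every WT library in the 6 panels of single genes, and the meningeal sums overlap.

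Replicate 1 of both groups differed in sex-linked genes from the other libraries. Xist, the RNA of the inactive X, had 0.934 and 1.82 normalized counts there and 5185 to 7257 elsewhere. Ddx3y from the Y had 1524 and 1561 there and 0 elsewhere, and Uty, Kdm5d and Eif2s3y were also at 0 elsewhere. By these genes replicate 1 was male and the other libraries female, so leaving out both replicate 1 libraries also leaves out the males. The highest WT library was replicate 1 for 20 of the 35 members tested and for 6 of the 6 called, beside 29.7% of all genes tested. The contrast of L192P with WT holds 1 male library on each side.

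Seed matches were searched for miR-5121 and miR-92-3p, which the study's text names as possible regulators of genes that differed in this cortex. Where the text names miR-92-3p, the legend of the same heatmap names another miRNA, whose seed was not searched. The mature sequences are from RefSeq, and capitals mark the seed, bases 2 to 8.
miR-5121: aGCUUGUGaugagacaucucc
miR-92a-3p: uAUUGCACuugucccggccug
miR-92b-3p: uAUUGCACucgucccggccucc
A match to the miR-5121 seed stood in the 3′ UTR of 4 of 32 members searched and of 11.1% of 15058 genes, and a match to the miR-92 seed in 2 of 32 and 7.98%. Of the 6 called genes, Grb10 had 1 match, to miR-5121, shown with its flanks from GRCm39 and the match in capitals.
Grb10 site: tgcagaggCACAAGCataagctg
Zim1 had 2 matches to miR-5121 and 1 to miR-92, Igf2 and Commd1 had 1 each to miR-5121, and Cdkn1c had 1 to miR-92. A seed match is a match of letters and does not show that the miRNA binds.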

How the data were processed

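Poly-A RNA of mouse cerebral cortex was sequenced in 4 L192P and 4 WT libraries. Per the labels, libraries were stranded mRNA preparations, and the submitters' processing notes name STAR 2.7.9a, featureCounts 1.5.1 and DESeq2 1.40.2. The study's methods give the genome as GRCm39, and name other versions of STAR and DESeq2 than the notes. The deposited counts are whole reads per gene, made by the authors. The normalized signal values deposited by the authors are those counts divided by DESeq2 size factors (largest difference 2.91e-10 counts), and are called normalized counts.

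The counts were fitted over all genes with DESeq2 1.42.0 in R 4.3.3, with genotype as the only term, Cook and independent filtering on, and Benjamini-Hochberg adjusted p under 0.05. Alternatives used edgeR 4.0.16, limma 3.58.1, other size factors, a filter of 10 counts in 4 libraries, filters off, a replicate block and libraries left out. Scripts were tested on simulated data: of 200 genes changed by 1 on the log2 scale among 55416, DESeq2 recovered 87% and the block fit 85%. Of their calls 7.45% and 10.1% were false, against 4.92% for edgeR and 2.29% for limma-voom. The changed genes were drawn above a minimum mean count, and no effect was shared between same-numbered libraries. These shares need not hold for smaller changes, lower counts or libraries that deviate together.

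Same-numbered libraries of the groups deviated together (correlations 0.63, 0.38, 0.23 and 0.33 over 13422 genes, against -0.38 to 0.14 for the other pairs), so the numbers were taken to pair them. Deviations were taken from the group mean, so positive values for same-numbered libraries lower the values of other pairs by construction. Among replicates 2 to 4, same-numbered libraries had 0.23 to 0.38 and the other pairs -0.02 to 0.14, so the pairing is less clear there. This pairing comes from the data, since the labels give only numbers. No 2 libraries of a group agreed within sampling noise (chi-square per degree of freedom 5.52 or more).

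The members and gene lists were chosen with earlier results of these data known. All 38 members are accounted for, those with an unadjusted p under 0.05 or called in the fit with or without the block are given in every library, and genes of other lists are named with their list. Positions are from GENCODE on GRCm39, where 37 members were found, and promoter windows from RefSeq on GRCm38.p6. The position of Zrsr1 is not given here. Single pairs of genes were tested by exact permutation, two-sided, and 95% intervals of a fold come from the standard error of the fit.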

Additional observations from a re-analysis of the deposited data

Results flagged for a closer look

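Over 70 groups of 4 libraries (35 members in 2 genotypes), the gap between the most extreme library and the nearest other was large for the range of its group in 5 cases. Chance alone flags about 1 in 20 groups, or 3.5 of 70.

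Calcr had 15.5 normalized counts in WT replicate 1 against 2.34 to 4.35 in the other WT libraries. Blcap had 3414 in the same library against 2883 to 2959. Blcap also had 3606 in L192P replicate 2 against 3284 to 3322. Nap1l5 had 13244 in L192P replicate 1 against 11347 to 11648. Airn had 15.0 in L192P replicate 3 against 8.39 to 9.34, on few reads.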

How the results depend on the processing

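Under 19 alternative fits, all 224 values computed for the 12 named members kept their direction. The count of called members (6) was 2 by edgeR and 3 by limma-voom, 10 with both replicate 1 libraries left out, and 5 to 9 with 1 library left out (5 without WT replicate 3, 9 without WT replicate 1). With the replicate block it was 6, 7 when independent filtering was also off, and 9 by edgeR with the block, against 2 by unpaired edgeR. The paired DESeq2 fit changed the call of Peg10, Impact, Nap1l5 and Rasgrf1. Over all genes the count of 253 was 53 by edgeR, 45 by limma-voom, 533 with the block, 537 by edgeR with the block, 500 without both replicate 1 libraries, and 112 to 496 with 1 library left out. The median log2 fold change over the members (0.15) moved by less than the spread between libraries, but was 0.084 without WT replicate 4 and at most 0.165 with 1 library left out (without WT replicate 1). The 7 members without overlap became 14 without both replicate 1 libraries and 7 to 12 with 1 library left out. Fewer libraries separate more often: the share of all genes without overlap was 5.97% with all libraries, 19% without both replicate 1 libraries and 8.4% to 12.6% with 1 left out. Asb4 moved from 1.99 to 2.63 on the log2 scale without both replicate 1 libraries, and Calcr from 2.35 to 3.30.

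By edgeR, Usp29 (adjusted p = 0.0595), Peg10 (0.0702), Asb4 (0.0702) and Calcr (0.0527) were not called, and by limma-voom Usp29 (0.0603), Peg10 (0.0897) and Asb4 (0.062) were not. The cause was not tested. For the gene lists, IGF axis calls (1) were 0 by edgeR and by limma-voom and 0 to 1 with 1 library left out. Hypothalamus calls (3) were 0 by limma-voom and 5 by edgeR with the block. Meningeal calls (3) were 0 by edgeR and limma-voom, 6 without both replicate 1 libraries and 1 to 6 with 1 library left out. Cortical neuron calls (0) were 3 with the replicate block, 2 with the block and filtering off, 1 by edgeR with the block, 2 without both replicate 1 libraries and 0 to 1 with 1 library left out. Vascular calls (0) were 1 with the block, by edgeR with the block and without both replicate 1 libraries, and 0 to 1 with 1 library left out. Calls among sex-linked genes (0) were 1 in the 3 fits with the block and 1 without both replicate 1 libraries. Asb4 and Calcr rest on few reads (at most 59 and 33 in a library), and H19, Zfp264 and Phlda2 were too low to test.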
